A study of Mus musculus with 11 samples.

Results

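The comparison set 2 sorts of kidney progenitor cell side by side, Cited1+ cells taken from mouse embryos at E16.5 and Six2+ cells taken at postnatal day 2 (P2). The comparison used every library of both groups in the deposited table that pairs them, 5 of the 11 libraries of the series, with 3 Cited1+ and 2 P2 Six2+ libraries. All 24427 genes kept in that table were members, and 11876 of them passed a filter on low values and were tested. The study profiled messenger RNA of kidney cells that flow cytometry had separated, all from the outbred CFW mouse stock. Cited1+ cells came from E16.5 kidneys of genotype Cited1tagRFP/+, and P2 Six2+ cells from kidneys of genotype Six2TGC/+. The other libraries, 3 of E16.5 Six2+ and 3 of E16.5 Six2- cells, were both of genotype Six2TGC/+ and sat in a separately normalised table. Stage, sorting marker and reporter line changed together between the groups compared, so their parts cannot be told apart. Below, wording such as higher in the embryo or higher at P2 names these sorts and gives no difference to stage alone. Whether the libraries within a group stem from separate animals is not given in the labels, so p-values measure the spread among these libraries.

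Nephrons, the filtering units of the kidney, arise from a pool of mesenchymal progenitors that caps the tips of the branching ureteric bud. Six2 keeps these cells undifferentiated, and Cited1 labels those farthest from commitment. Wnt9b from the ureteric bud and Wnt4 within the mesenchyme drive induction, in which cells aggregate and become an epithelial renal vesicle marked by Lhx1 and Pax8. The pool is used up shortly after birth in the mouse, when the last progenitors differentiate together.

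Values are on the RPKM scale, read counts scaled by transcript length and library depth, so levels of different genes are per length, and values of a group are given in the order of replicate numbers. The low values of single-transcript genes imply depths of 22.6, 24.7 and 29.3 Mreads (mega-reads) in the Cited1+ libraries and 22.9 and 16.6 Mreads in the P2 libraries. Libraries of a group differed by a median of 0.101 to 0.207 on the log2(value + 1) scale, and libraries of different groups by 0.261 to 0.369. Cited1+ replicate 3 stood apart in having 3690 genes at 0 against 7902 to 9418 in the other libraries. Cited1+ replicate 2 was the nearest of its group to the P2 libraries, and its ribosomal protein genes took 14.6% of summed values against 17.0% and 17.8% in the other Cited1+ libraries and 11.9% and 13.3% at P2. Xist, the X inactivation transcript of female cells, stood at 0.0172, 140.2 and 0.142 in Cited1+ and 0.102 and 158 in P2 libraries, so libraries within each group differed in the sex of the cells they held. The 2 P2 libraries are therefore not repeats of 1 sample, and neither is Cited1+ replicate 2 of the other Cited1+ libraries, while whether Cited1+ replicates 1 and 3 come from separate animals is not given. Other genes with a wide spread inside a group were Zfp488, 4930470H14Rik and Hist1h2ap among Cited1+ libraries and the calcium-binding protein gene S100g, at 21.5 and 1.26, among P2 libraries.

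The genes higher in Cited1+ cells numbered 1930 and the genes lower in Cited1+ cells 1512 by limma's moderated test at a Benjamini-Hochberg adjusted p below 0.05 over all genes tested, or 16.3% and 12.7% of them. When a change of 1 or more on the log2 scale was required too, 461 were higher (3.88%) and 512 lower (4.31%). Fold changes are differences of log2(value + 1), Cited1+ minus P2 Six2+, and understate the change of low genes, and their median over all genes tested was 0.07. Higher genes made up 56.1% of calls, and 46.7% (1527 higher, 1743 lower) after the libraries were rescaled to the same sum. Single libraries moved these counts. Higher genes numbered 791 without Cited1+ replicate 1, 3012 without Cited1+ replicate 2, 1042 without Cited1+ replicate 3, and 936 and 873 without P2 replicates 1 and 2. Lower genes numbered 875 without Cited1+ replicate 1 and 841 and 788 without P2 replicates 1 and 2. In bulk libraries, fewer cells of a type and less RNA per cell cannot be told apart. Counts of list members below stand beside the shares of all genes tested, 16.3% higher and 12.7% lower.

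**Figure D1:**
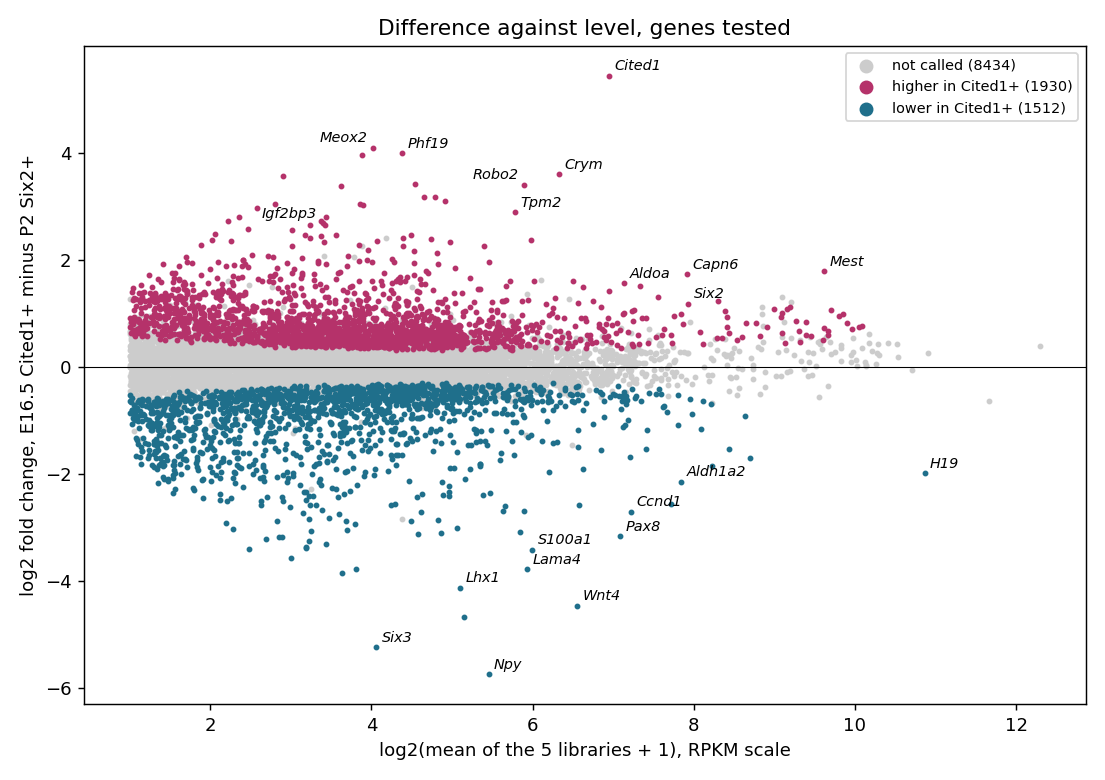
The vertical axis gives the log2 fold change of each of 11876 genes tested, Cited1+ minus P2 Six2+, and the horizontal axis gives log2 of the mean level of the 5 libraries plus 1. The 1930 higher and 1512 lower genes are coloured, Mest and H19 being the most abundant of the genes labelled and Npy and Six3 the lowest by fold change.

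Markers of other kidney cells were present in both sorts and moved in opposite directions. Stroma and mural markers summed to 247.6 to 269 in Cited1+ libraries and 141 to 164 at P2, with 10 of 17 tested members higher and 3 lower, or 1 lower without P2 replicate 2, and a median log2 fold change of 0.73. Foxd1, the factor that marks cortical stroma, stood at 14.8, 14.3 and 19.2 in Cited1+ and 4.09 and 3.896 in P2 libraries (log2 fold change 1.76, SE 0.15, limma adjusted p = 0.000234). The fibrillar collagen gene Col1a1 stood at 39.4, 38.3 and 40.8 in Cited1+ and 7.24 and 9.45 in P2 libraries (log2 fold change 2.12, SE 0.13, limma adjusted p = 5.10e-05). These values are low beside Six2, and the groups did not overlap. Acta2, on the same list, was among the lower members (log2 fold change -1.13, limma adjusted p = 0.0042), so the list did not move as 1. Ureteric bud and collecting duct markers summed to 135 to 183 and 79.5 to 85.1, with 15 of 20 higher and 2 lower (median 1.33), the lower ones numbering 1 without Cited1+ replicate 1 or either P2 library. Loop of Henle and distal tubule markers summed to 162 to 189 and 75.9 to 110.5, with 12 of 17 higher and 0 lower (median 1.27), and 7 were higher without Cited1+ replicate 3 or P2 replicate 2. Erythroid markers summed to 150.2 to 236 and 33.8 to 64.99, with 6 of 7 higher and 0 lower (median 1.99); all 6 are haemoglobin genes, whose near-identical copies make them uncertain as separate measurements.

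Podocyte and macrophage markers were higher at P2, and in 4 further lists the summed level rested on 1 member. Podocyte and parietal markers summed to 362 to 379.9 in Cited1+ libraries and 618 to 649.8 at P2, with 2 of 19 higher and 11 lower (median -0.74). Nphs1 (nephrin), a slit diaphragm gene of podocytes, was under 1 in all 5 libraries. Macrophage and leukocyte markers summed to 10.5 to 17.7 and 34.4 to 38.8, with 8 of 9 lower and 0 higher (median -1.33), and 5 were lower without P2 replicate 2. Proximal tubule markers summed to 41.6 to 50.1 and 63.8 to 84.8, with 5 of 14 higher and 2 lower (median 0.67), the higher ones numbering 2 without Cited1+ replicate 1 or 3 or P2 replicate 2. The higher P2 sum came from Cdh6: without it the proximal sums were 36.2 to 45.01 in Cited1+ libraries and 20.01 and 37.6 at P2, and the groups overlapped. Endothelial markers summed to 21.9 to 38.1 and 38.1 to 42.3, with 0 of 7 higher and 1 lower (median 0.10), and 1 was higher without Cited1+ replicate 2 or P2 replicate 2. Without Cldn5 the endothelial sums were 19.97 to 35.5 and 19.9 to 20.1. Neural, glial and Schwann markers summed to 29.97 to 33.1 and 37.0 to 40.4, with 3 of 5 higher and 1 lower (median 0.84), and 1 was higher without Cited1+ replicate 1 or P2 replicate 2. The higher P2 sum came from Ngfr, and without it the neural sums were 20.7 to 23.9 in Cited1+ libraries and 12.3 to 12.6 at P2, the opposite order. Skeletal muscle markers summed to 36.5 to 40.9 and 19.9 to 27.6, with 1 of 5 higher and 1 lower (median -0.15). Without Des the muscle sums were 5.20 to 9.603 and 11.2 to 21.1, again the opposite order. These sums without the member whose group means differed most were added after the values were seen, and in the stroma, ureteric, loop, erythroid, podocyte and macrophage lists they kept the order of the groups. Members listed at 0 in a library numbered 0 to 2 of the stroma, endothelial, macrophage, ureteric, proximal, loop and podocyte lists, 1 to 4 of the 13 erythroid genes, 1 to 7 of the 17 neural and 1 to 4 of the 10 muscle genes. The part of these cells in the results below was not tested.

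**Figure D2:**
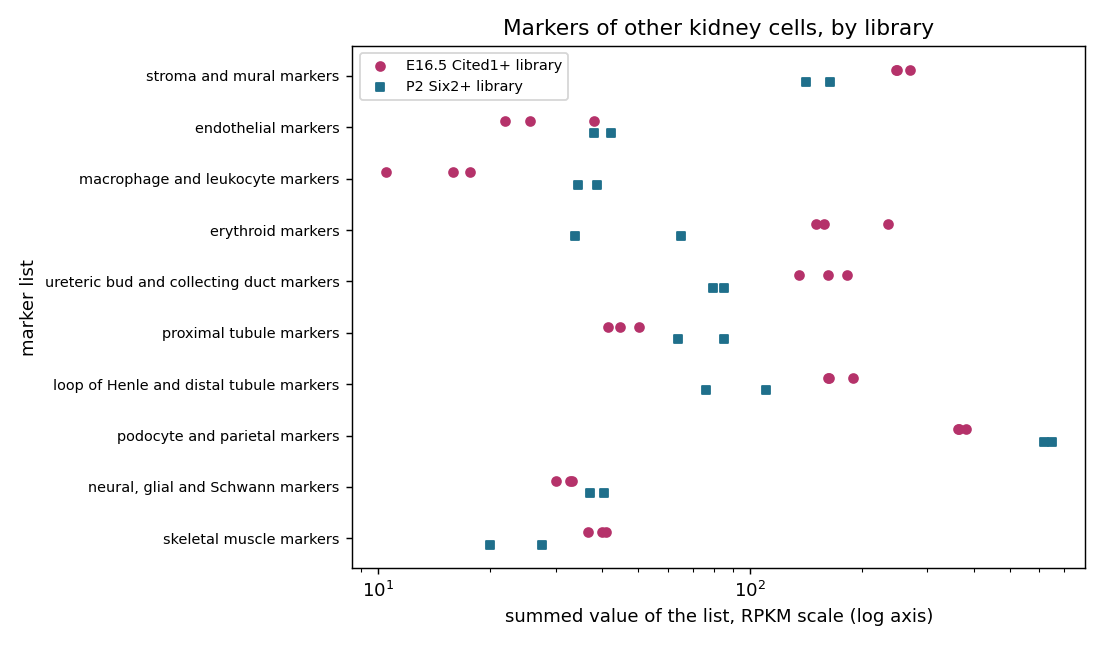
Each row is a list of markers of another kidney cell type and each point 1 library, placed on a log axis by the summed value of the list on the RPKM scale. Stroma, erythroid, ureteric, loop and muscle sums were higher in all 3 Cited1+ libraries than in both P2 libraries, and macrophage, proximal, podocyte and neural sums were lower; the order of the muscle and neural sums turned, and that of the proximal sums was lost, without 1 member each (Des, Ngfr and Cdh6).

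Levels of the 2 sort genes were set beside the labels. Cited1, the gene that carries the reporter of the embryonic sort, stood at 196, 193 and 215 in Cited1+ and 2.83 and 4.68 in P2 libraries, and Six2 at 279, 374 and 286 in Cited1+ and 129 and 146 in P2 libraries. Cited1 chose the cells of the embryonic sort, so its difference is no finding. Six2 chose the P2 cells only and was lower in them, so its values do not check the labels. The reason for its difference was not tested. Six2 lies at chr17:85662736-85688254 in the GENCODE M21 annotation of GRCm38, and its neighbour Six3, a homeobox factor of the forebrain and eye, lies at chr17:85613608-85626191. Six3 was listed at 0 in Cited1+ replicates 1 and 2, at 0.185 in replicate 3, and at 39.98 and 38.4 at P2 (log2 fold change -5.25, SE 0.14, limma adjusted p = 5.14e-06). In the other table, in which no test against these libraries was made, Six3 stood at 52.9, 41.9 and 39.8 in E16.5 Six2+ libraries and 0.798, 0.616 and 1.24 in E16.5 Six2- libraries. The gene was high in the Six2+ sorts of both stages, which carry Six2TGC. It was low in E16.5 Six2- cells, which carry Six2TGC too, and at or near 0 in the Cited1+ sort, which carries Cited1tagRFP. The part of sorting marker and reporter line was not tested.

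Transcription factors of the progenitor pool split between the 2 sorts. Of 28 tested, 9 were higher and 10 lower in Cited1+ cells (median log2 fold change 0.17), against a background of 16.3% and 12.7% of all genes. The lower ones numbered 6 without Cited1+ replicate 1 and 5 and 3 without P2 replicates 1 and 2. Apart from Cited1, the largest rises were in the mesenchyme homeobox genes. Meox2, at chr12:37108540-37179534, stood at 22.99, 29.7 and 22.2 in Cited1+ and 0.111 and 1.05 in P2 libraries (log2 fold change 4.09, SE 0.26, limma adjusted p = 7.23e-05). Meox1 stood at 38.3, 42.95 and 45 in Cited1+ and 3.75 and 3.82 in P2 libraries (log2 fold change 3.17, SE 0.11, limma adjusted p = 8.54e-06). Meox2 differed more between the P2 libraries than Meox1 did. Osr1, a zinc finger factor of the earliest renal mesoderm, stood at 24.4, 31.8 and 24.5 in Cited1+ and 9.45 and 12.4 in P2 libraries (log2 fold change 1.22, SE 0.16, limma adjusted p = 0.00199). Myc, a growth regulator, stood at 40.5, 57.4 and 52.2 in Cited1+ and 11 and 20.5 in P2 libraries (log2 fold change 1.65, SE 0.25, limma adjusted p = 0.00357).

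The promoter of Meox2 is shown because it is the largest rise outside the sort genes. The window runs from 250 bases before to 50 bases after the RefSeq start site, chr12:37108290-37108589 on the plus strand of GRCm38.p6, with the TATAAA word, here read on the opposite strand, from position -29 relative to the start site, in capitals.
Meox2: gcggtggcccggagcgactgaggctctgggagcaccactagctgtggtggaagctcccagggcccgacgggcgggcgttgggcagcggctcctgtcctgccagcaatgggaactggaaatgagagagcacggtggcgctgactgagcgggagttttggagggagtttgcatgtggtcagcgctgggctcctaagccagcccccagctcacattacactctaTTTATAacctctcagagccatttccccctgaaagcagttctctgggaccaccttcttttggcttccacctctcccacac
This word was found on either strand in 6.41% of the 9109 tested genes with a promoter sequence, in 10.5% of the 332 genes higher by at least 1 on the log2 scale and in 10.9% of the 368 lower ones. Both sets of changed genes thus held it at a similar share.

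Several factors that define the progenitor pool were higher at P2. Wt1, the zinc finger factor needed for kidney formation, stood at 112, 128 and 98.5 in Cited1+ and 254 and 256 in P2 libraries (log2 fold change -1.18, SE 0.13, limma adjusted p = 0.000901). Dach1, a partner of Eya proteins, stood at 18.7, 21.04 and 16.7 in Cited1+ and 67.6 and 73.6 in P2 libraries (log2 fold change -1.86, SE 0.12, limma adjusted p = 8.19e-05). Pax2, the paired-box factor of the renal lineage, stood at 165, 248 and 154 in Cited1+ and 368 and 315 in P2 libraries; it passed (limma adjusted p = 0.0215) but no longer passed without Cited1+ replicate 1 or 3 or either P2 library. Sall1, a zinc finger factor of the cap mesenchyme, stood at 119, 148 and 117 in Cited1+ and 192 and 194 in P2 libraries and lost its call without Cited1+ replicate 1 or either P2 library (limma adjusted p = 0.016 with all 5). Mycn stood at 16.98, 14.8 and 21.02 in Cited1+ and 31.4 and 72.03 in P2 libraries, opposite in direction to Myc, but its P2 libraries were far apart and the call ended without P2 replicate 2 (limma adjusted p = 0.0169 with all 5). Wt1 and Dach1 are on the podocyte marker list too, and its sum was also higher at P2; its part was not tested. Eya1, the phosphatase partner of Six2, stood at 100.3, 125 and 89.2 in Cited1+ and 93.6 and 88.6 in P2 libraries and did not pass (limma adjusted p = 0.369).

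The list named for surface and secreted genes of progenitors had 13 of 25 tested members higher in Cited1+ cells and 5 lower (median 0.44). It also holds genes that are neither surface nor secreted, among them Traf1, Crym and Phf19, so the count does not describe surface and secreted genes alone. Traf1, an adaptor of tumour necrosis factor receptors, stood at 30.7, 17.01 and 19.95 in Cited1+ and 0.299 and 0.674 in P2 libraries (log2 fold change 3.96, SE 0.25, limma adjusted p = 6.69e-05). Robo2, the receptor for Slit ligands that limits where the ureteric bud forms, stood at 85.1, 112 and 80.1 in Cited1+ and 7.37 and 8.09 in P2 libraries (log2 fold change 3.40, SE 0.15, limma adjusted p = 1.94e-05). Crym, a thyroid hormone binding protein, stood at 144, 75.99 and 155 in Cited1+ and 16.2 and 4.705 in P2 libraries (log2 fold change 3.60, SE 0.47, limma adjusted p = 0.00191). Both groups were spread for Crym, with Cited1+ replicate 2 the lowest embryonic library and P2 replicate 1 the higher P2 library; and the choice of the leading genes left out any whose groups overlap. Rspo3, an enhancer of Wnt signalling, stood at 16.4, 19.2 and 16.03 in Cited1+ and 2.57 and 5.74 in P2 libraries (log2 fold change 1.89, SE 0.25, limma adjusted p = 0.00194). Its groups did not overlap. Spock2, a matrix proteoglycan, stood at 281, 324 and 254 in Cited1+ and 144 and 142 in P2 libraries (log2 fold change 0.99, SE 0.13, limma adjusted p = 0.00199). Itga8, the integrin subunit that progenitors need for bud outgrowth, stood at 76.1, 76.7 and 71.7 in Cited1+ and 44.2 and 42.6 in P2 libraries (log2 fold change 0.77, SE 0.09, limma adjusted p = 0.00139). On the P2 side, Slit2, a ligand of Robo receptors, stood at 14.4, 12.7 and 16.96 in Cited1+ and 52.8 and 60.8 in P2 libraries (log2 fold change -1.89, SE 0.14, limma adjusted p = 0.000144). The heparin-binding growth factor gene Mdk stood at 145, 206 and 195 in Cited1+ and 403 and 409 in P2 libraries (log2 fold change -1.17, SE 0.17, limma adjusted p = 0.00269). The receptor Robo2 and the ligand Slit2 thus moved in opposite directions.

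Further genes stood out among the 30 largest rises. Phf19, a reader of histone methylation that partners Polycomb complex PRC2, stood at 32.5, 30.4 and 34.1 in Cited1+ and 1.17 and 1.03 in P2 libraries (log2 fold change 3.99, SE 0.11, limma adjusted p = 5.14e-06). Has2, the main hyaluronan synthase of embryos, stood at 35.4, 38.2 and 40.04 in Cited1+ and 3.43 and 3.197 in P2 libraries (log2 fold change 3.17, SE 0.11, limma adjusted p = 7.67e-06). Dock5, an activator of Rac, stood at 45.7, 48.2 and 42.8 in Cited1+ and 4.58 and 4.34 in P2 libraries (log2 fold change 3.09, SE 0.10, limma adjusted p = 7.67e-06). All 3 stood above 30 in each embryonic library and below 5 at P2. Ocm, a calcium-binding protein (oncomodulin), stood at 10.3, 9.96 and 12.1 in the embryo, and both P2 libraries listed it at 0. Pgf, placental growth factor, stood at 9.53, 10.4 and 9.41 in Cited1+ and 0.310 and 0.323 in P2 libraries (log2 fold change 3.03, SE 0.13, limma adjusted p = 1.56e-05). Gli1, a target of Hedgehog signalling, stood at 5.495, 5.56 and 4.6 in Cited1+ and 0.107 and 0.115 in P2 libraries (log2 fold change 2.48, SE 0.15, limma adjusted p = 6.44e-05). Both were low genes at P2, under 1 in each library. Tpm2, a muscle-type tropomyosin gene, stood at 72.5, 104 and 73.6 in Cited1+ and 10.4 and 10.1 in P2 libraries (log2 fold change 2.89, SE 0.16, limma adjusted p = 4.67e-05). Scx, the tendon transcription factor scleraxis, stood at 35.4, 25.3 and 36.6 in Cited1+ and 5.81 and 4.25 in P2 libraries (log2 fold change 2.47, SE 0.19, limma adjusted p = 0.000161). Slc12a1, the cotransporter of the thick ascending limb, stood at 32.9, 29.3 and 42.6 in Cited1+ and 6.4 and 0.483 in P2 libraries, and the loop of Henle marker sum was higher in the same libraries; its part was not tested.

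**Figure D3:**
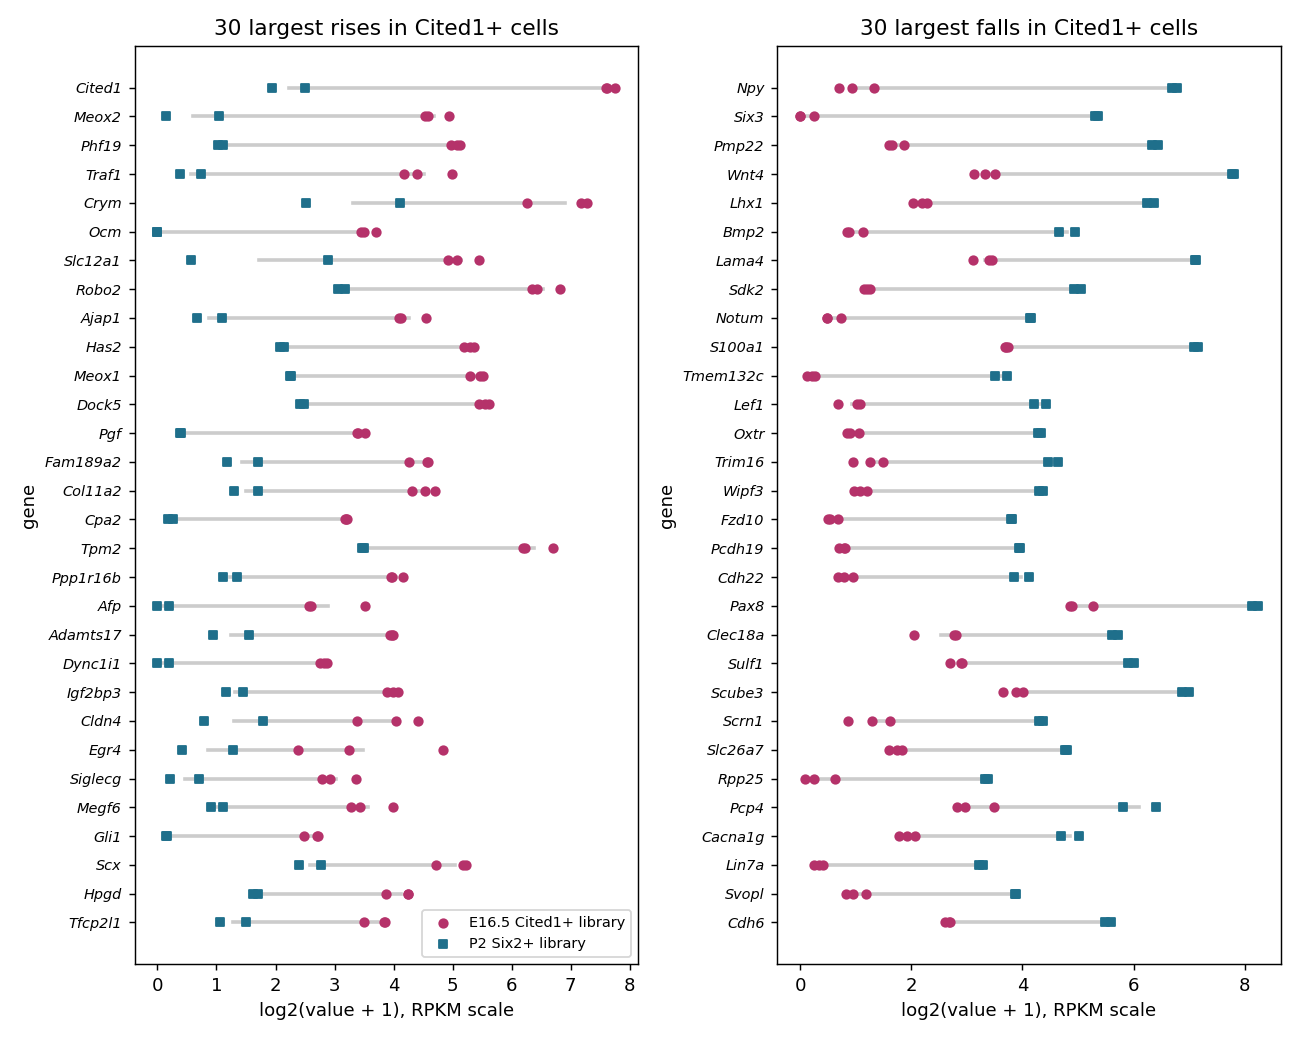
Rows are the 30 largest rises and 30 largest falls in Cited1+ cells and points are libraries, placed by log2(value + 1) on the RPKM scale, with a grey line joining the group means. The 60 genes were chosen among those whose groups do not overlap, so that separation is given by the choice, and Crym and Slc12a1 among the rises show the widest spread at P2.

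Genes of induced mesenchyme and the renal vesicle lay on the P2 side. Of 34 tested, 28 were lower and 0 higher in Cited1+ cells, which is 82.4% against a background of 12.7%, and the median log2 fold change was -2.22 against 0.07 over all genes. Like the other lists, this one was chosen with earlier results of these data known, so its share may in part be given by the choice. Without Cited1+ replicate 2, 3 members were higher. Wnt4, the signal that drives the change to epithelium, lies at chr4:137277635-137299501 and stood at 8.97, 7.71 and 10.4 in Cited1+ and 216 and 222 in P2 libraries (log2 fold change -4.47, SE 0.13, limma adjusted p = 5.14e-06). Lhx1, the homeobox factor of the renal vesicle, stood at 3.57, 3.09 and 3.89 in Cited1+ and 74.2 and 81.8 in P2 libraries (log2 fold change -4.13, SE 0.12, limma adjusted p = 5.14e-06). Pax8, a paired-box factor of the renal lineage, stood at 27.9, 37.8 and 28.6 in Cited1+ and 299 and 279 in P2 libraries (log2 fold change -3.17, SE 0.15, limma adjusted p = 2.08e-05). The P2 libraries lay close together for each gene. Pax8 was not near 0 in Cited1+ cells, where it stood above Lhx1 and Wnt4 in every library.

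Ligands and adhesion genes of induction moved with these factors. Bmp2, a bone morphogenetic protein, stood at 0.840, 0.805 and 1.19 in Cited1+ and 24.4 and 29.8 in P2 libraries (log2 fold change -3.85, SE 0.16, limma adjusted p = 1.50e-05). Npy, neuropeptide Y, stood at 0.625, 1.51 and 0.903 in Cited1+ and 103 and 108 in P2 libraries (log2 fold change -5.75, SE 0.19, limma adjusted p = 6.77e-06). Pmp22, a myelin membrane protein found also in other tissues, stood at 2.64, 2.01 and 2.14 in Cited1+ and 79.7 and 85.7 in P2 libraries (log2 fold change -4.69, SE 0.12, limma adjusted p = 5.14e-06). All P2 values of these genes were above 20 and embryonic values were below 3. Cdh6, a cadherin of the early proximal nephron, stood at 5.104, 5.37 and 5.47 in Cited1+ and 47.3 and 43.8 in P2 libraries (log2 fold change -2.88, SE 0.10, limma adjusted p = 9.54e-06). Sdk2, a homophilic adhesion protein, stood at 1.4, 1.21 and 1.31 in Cited1+ and 29.3 and 32.05 in P2 libraries (log2 fold change -3.78, SE 0.12, limma adjusted p = 6.77e-06). Lef1, the nuclear partner of beta-catenin, stood at 0.609, 1.04 and 1.105 in Cited1+ and 20.4 and 17.6 in P2 libraries (log2 fold change -3.39, SE 0.17, limma adjusted p = 2.53e-05). Ccnd1, cyclin D1, was abundant on both sides at 43.2, 43.1 and 50.5 in Cited1+ and 315 and 292 in P2 libraries (log2 fold change -2.71, SE 0.11, limma adjusted p = 1.50e-05). The 6 members that did not pass were Dkk1, Mycl, Fgf8, Wfdc2, Sox4 and Cxcr4. Fgf8, the growth factor of the renal vesicle, stood at 12.3, 9.81 and 9.96 in Cited1+ and 9.74 and 10.7 in P2 libraries (limma adjusted p = 0.779), and Cxcr4, a chemokine receptor, at 25.3, 20.5 and 26.4 in Cited1+ and 18.8 and 17.98 in P2 libraries, passing without Cited1+ replicate 2 alone. The groups overlapped for Fgf8 and not for Cxcr4.

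The 30 largest falls also held genes outside the lists of kidney induction. S100a1, a calcium-binding protein, stood at 11.96, 12.3 and 11.9 in Cited1+ and 135 and 142 in P2 libraries (log2 fold change -3.42, SE 0.09, limma adjusted p = 5.14e-06). Scube3, a secreted co-factor of BMP signalling, stood at 15.02, 11.5 and 13.7 in Cited1+ and 115 and 127 in P2 libraries (log2 fold change -3.09, SE 0.13, limma adjusted p = 1.50e-05). Sulf1, an enzyme that removes sulfate from heparan sulfate, stood at 6.52, 5.51 and 6.42 in Cited1+ and 58.8 and 63 in P2 libraries (log2 fold change -3.12, SE 0.11, limma adjusted p = 9.54e-06). The P2 libraries of these 3 genes lay close together. Oxtr, the oxytocin receptor, stood at 1.08, 0.797 and 0.870 in Cited1+ and 19.2 and 18.4 in P2 libraries (log2 fold change -3.37, SE 0.13, limma adjusted p = 1.50e-05). Clec18a, a C-type lectin, stood at 5.83, 3.11 and 5.99 in Cited1+ and 47.98 and 51.9 in P2 libraries (log2 fold change -3.13, SE 0.23, limma adjusted p = 0.000141). All 5 are among genes chosen for groups that do not overlap. Among abundant genes, picked after their values were seen, Igfbp5, which binds insulin-like growth factors, stood at 198, 237 and 213 in Cited1+ and 658 and 757 in P2 libraries (log2 fold change -1.71, SE 0.13, limma adjusted p = 0.000182). Lsp1, an actin-binding protein, stood at 68.95, 75.9 and 65.7 in Cited1+ and 418 and 422 in P2 libraries (log2 fold change -2.57, SE 0.11, limma adjusted p = 1.50e-05). Neither gene overlapped between groups. Gja1, the gap junction protein connexin 43, stood at 44.7, 47.2 and 45.2 in Cited1+ and 161 and 191 in P2 libraries (log2 fold change -1.92, SE 0.11, limma adjusted p = 4.80e-05). Capn6, a calpain without protease activity, stood at 322, 370 and 308 in Cited1+ and 104 and 95.4 in P2 libraries (log2 fold change 1.73, SE 0.12, limma adjusted p = 0.000127). Capn6 was the only one of these 4 that was higher in the embryo.

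Wnt ligand, receptor and feedback target transcripts included members called in both directions. Of 19 Wnt ligand genes 5 were tested, with 2 lower and 1 higher (median -0.37). Wnt8b stood at 0.561, 0.623 and 0.573 in Cited1+ and 3.66 and 3.16 in P2 libraries (log2 fold change -1.47, SE 0.16, limma adjusted p = 0.000755). The higher one, Wnt5a, a ligand of non-canonical signalling, stood at 2.09, 2.25 and 2.37 in Cited1+ and 1.13 and 1.23 in P2 libraries and lost its call without Cited1+ replicate 1 or 3 or either P2 library, while 2 ligands were higher without Cited1+ replicate 2 or P2 replicate 2. Of 18 receptors and co-factors 7 were lower and 1 higher (median -0.09), with 4 lower without P2 replicate 2. The Frizzled receptor gene Fzd10 stood at 0.413, 0.447 and 0.614 in Cited1+ and 13.1 and 12.8 in P2 libraries (log2 fold change -3.23, SE 0.14, limma adjusted p = 1.87e-05). Fzd7 stood at 28.9, 28.7 and 28.3 in Cited1+ and 59.6 and 73.5 in P2 libraries (log2 fold change -1.18, SE 0.12, limma adjusted p = 0.000492). Fzd2 moved the other way, at 71.8, 65.3 and 75.1 in Cited1+ and 42.1 and 41.9 in P2 libraries (log2 fold change 0.74, SE 0.10, limma adjusted p = 0.00243). Lgr6, a receptor for R-spondins, stood at 0.462, 0.424 and 0.712 in Cited1+ and 7.36 and 7.86 in P2 libraries (log2 fold change -2.49, SE 0.16, limma adjusted p = 7.23e-05), whereas Lgr5, of the same family, stood at 0.925, 1.46 and 1.21 in Cited1+ and 1.23 and 1.13 in P2 libraries and overlapped between groups.

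Of 19 tested Wnt antagonists and beta-catenin targets, 12 were lower and 2 higher (median -1.38), and the list shares Lef1, Ccnd1, Sfrp2, Bambi, Tcf7 and Dkk1 with the renal vesicle list. Notum, an enzyme that inactivates Wnt ligands, stood at 0.393, 0.401 and 0.656 in Cited1+ and 16.8 and 16.6 in P2 libraries (log2 fold change -3.59, SE 0.15, limma adjusted p = 1.50e-05). Sfrp2, a secreted Wnt-binding protein, stood at 25.6, 34.8 and 31.9 in Cited1+ and 196 and 184 in P2 libraries (log2 fold change -2.60, SE 0.14, limma adjusted p = 3.75e-05). Dkk2, a Dickkopf antagonist, stood at 1.34, 0.895 and 0.898 in Cited1+ and 6.62 and 7.24 in P2 libraries (log2 fold change -1.96, SE 0.16, limma adjusted p = 0.000215). Its P2 values were several times those of every embryonic library. Axin2, the most used target of the pathway, stood at 13.4, 15.6 and 12.1 in Cited1+ and 19.7 and 16.7 in P2 libraries (log2 fold change -0.38, limma adjusted p = 0.073), and passed without Cited1+ replicate 2. Its groups did not overlap. Myc, also a target, was one of the 2 that were higher in Cited1+ cells.

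Sp5, a zinc finger gene that beta-catenin activates directly, stood at 1.09, 0.482 and 1.04 in Cited1+ and 7.68 and 5.06 in P2 libraries (log2 fold change -1.97, SE 0.23, limma adjusted p = 0.00106), and its promoter is shown because its window holds the Tcf/Lef word CTTTGAT. The window is chr2:70474673-70474972 on the plus strand of GRCm38.p6 from RefSeq, with the word, which starts at position -104 relative to the start site, in capitals.
Sp5: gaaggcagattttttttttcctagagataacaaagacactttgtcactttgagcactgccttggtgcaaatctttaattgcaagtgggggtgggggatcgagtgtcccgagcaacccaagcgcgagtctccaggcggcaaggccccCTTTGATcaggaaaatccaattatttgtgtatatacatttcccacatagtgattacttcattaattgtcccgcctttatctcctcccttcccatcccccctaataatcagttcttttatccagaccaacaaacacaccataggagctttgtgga
CTTTGAT was found on either strand in 2.4% of tested promoters, in 1.51% of those of genes higher by at least 1 and in 1.9% of those of lower genes. None of the 19 promoters of renal vesicle genes that fell held it in this window, including that of Wnt4. The ETS word CCGGAAG was found in 19% of tested promoters, 6.33% of those of higher genes and 4.89% of those of lower genes, so both sets of changed genes held it less often than the tested genes as a whole, in numbers without a test.

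FGF signalling keeps progenitors alive, and its feedback genes were more often higher than lower in the embryo. Of 15 feedback and response genes 7 were higher and 2 lower (median 0.59), with 4 higher without Cited1+ replicate 1 or P2 replicate 2. Spry4, an inhibitor of receptor tyrosine kinase signalling, stood at 10.4, 10.2 and 11.6 in Cited1+ and 3.17 and 3.35 in P2 libraries (log2 fold change 1.46, SE 0.12, limma adjusted p = 0.000205). The ETS factor gene Etv5 stood at 47.3, 44.4 and 44.2 in Cited1+ and 30.1 and 26.2 in P2 libraries (log2 fold change 0.67, SE 0.10, limma adjusted p = 0.00397). Spry1, the Sprouty gene that restrains GDNF signalling, moved the other way at 26.2, 24.1 and 35.4 in Cited1+ and 82.1 and 101 in P2 libraries (log2 fold change -1.66, SE 0.18, limma adjusted p = 0.00074). Dusp6, a phosphatase of ERK, stood at 30.4, 26.1 and 48.99 in Cited1+ and 21.1 and 20.01 in P2 libraries, with Cited1+ replicate 3 high, and did not pass (limma adjusted p = 0.0647), though it did without Cited1+ replicate 2. Of 10 ligands and receptors 2 were higher and 2 lower (median 0.06); without P2 replicate 2, 1 was higher and 0 were lower, and without Cited1+ replicate 1, 1 was lower. Fgf1 stood at 23.4, 27.5 and 20.4 in Cited1+ and 6.095 and 6.49 in P2 libraries (log2 fold change 1.75, SE 0.14, limma adjusted p = 0.000186). Fgf9, a survival factor of the progenitors, stood at 2.26, 2.71 and 3.06 in Cited1+ and 1.18 and 0.758 in P2 libraries and lost its call without P2 replicate 2 (limma adjusted p = 0.0106 with all 5). Fgf20, which acts with Fgf9 on progenitor survival, stood at 3.76, 2.08 and 4.39 in Cited1+ and 2.18 and 2.16 in P2 libraries and did not pass.

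The GDNF axis links progenitors to the ureteric bud, GDNF from the mesenchyme acting on the receptor RET and its co-receptor GFRA1. Of 10 genes tested 5 were higher and 2 lower (median 0.71), with 3 higher without either P2 library. Gdnf stood at 36.2, 35.6 and 25.9 in Cited1+ and 19.8 and 13.98 in P2 libraries (limma adjusted p = 0.0131) and lost its call without P2 replicate 2. Gfra1 stood at 62.6, 59.4 and 62.3 in Cited1+ and 15.6 and 14.8 in P2 libraries (log2 fold change 1.95, SE 0.09, limma adjusted p = 2.42e-05). Ret, the receptor of the ureteric tip, was under the filter on low values at 1.21, 1.295 and 0.754 in Cited1+ and 0.112 and 0.0821 in P2 libraries. Cited1+ libraries held more of Gfra1 and Ret than P2 libraries, and the ureteric marker sum was also higher in them; its part was not tested.

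BMP and TGF-beta genes went both ways (median -0.15). Of 24 ligands, receptors and antagonists 6 were higher (25%) and 7 lower (29.2%), against 16.3% and 12.7% of all genes. Bmp4 stood at 4.43, 4.68 and 5.06 in Cited1+ and 25.7 and 25.6 in P2 libraries (log2 fold change -2.22, SE 0.11, limma adjusted p = 2.53e-05). Nog, the antagonist noggin, stood at 1.19, 1.05 and 1.48 in Cited1+ and 5.24 and 8.28 in P2 libraries (log2 fold change -1.77, SE 0.20, limma adjusted p = 0.00103). Tgfb3 moved toward the embryo at 13.2, 15.2 and 13.8 in Cited1+ and 5.83 and 5.34 in P2 libraries (log2 fold change 1.19, SE 0.12, limma adjusted p = 0.000485). Sostdc1, an antagonist of BMP and Wnt ligands, did so too at 11.3, 8.82 and 14.6 in Cited1+ and 2.95 and 1.34 in P2 libraries (log2 fold change 2.02, SE 0.27, limma adjusted p = 0.00187). Bmp7, the BMP that maintains progenitors, stood at 55.5, 56.4 and 51.8 in Cited1+ and 44.01 and 36.2 in P2 libraries, and its call (limma adjusted p = 0.0291) ended without Cited1+ replicate 1 or 3 or P2 replicate 2 and after either rescaling. Of 13 Id genes and Smads, which report and relay the signal, 6 were lower and 0 higher (median -0.75). Id4, an inhibitor of helix-loop-helix factors, stood at 8.67, 11.1 and 10.02 in Cited1+ and 54.2 and 58.7 in P2 libraries (log2 fold change -2.40, SE 0.12, limma adjusted p = 3.11e-05). Id2 stood at 62.5, 73.6 and 83.8 in Cited1+ and 130.1 and 184 in P2 libraries (log2 fold change -1.08, SE 0.18, limma adjusted p = 0.00534). Both Id genes were lower in every embryonic library. The inhibitory Smad gene Smad6 stood at 15.3, 13.5 and 15.8 in Cited1+ and 27.6 and 28.9 in P2 libraries (log2 fold change -0.88, SE 0.11, limma adjusted p = 0.00143). Smad9 stood at 3.43, 4.104 and 3.78 in Cited1+ and 14.8 and 17.8 in P2 libraries (log2 fold change -1.86, SE 0.13, limma adjusted p = 0.00013). Id1, the usual reporter of BMP signalling, stood at 46.95, 24.6 and 84.6 in Cited1+ and 81.4 and 206 in P2 libraries, overlapped between groups and did not pass (limma adjusted p = 0.0754), though it did without Cited1+ replicate 3. The shared signal carrier Smad4 stood at 50.6, 49.99 and 46.6 in Cited1+ and 55.04 and 53.4 in P2 libraries and did not pass.

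Notch genes, which pattern the renal vesicle toward proximal fates, showed 9 of 19 lower and 3 higher (median -0.46), with 1 higher without Cited1+ replicate 1. The ligand gene Jag1 stood at 7.55, 6.18 and 7.56 in Cited1+ and 57.5 and 58.5 in P2 libraries (log2 fold change -2.87, SE 0.12, limma adjusted p = 1.50e-05). The receptor gene Notch1 stood at 13.95, 13.4 and 13.6 in Cited1+ and 35.5 and 36.9 in P2 libraries (log2 fold change -1.34, SE 0.10, limma adjusted p = 0.000123). Among targets, Hey1 stood at 13.7, 14.2 and 15.2 in Cited1+ and 72.2 and 88.7 in P2 libraries (log2 fold change -2.40, SE 0.12, limma adjusted p = 2.60e-05). Nrarp, a feedback inhibitor, stood at 3.27, 2.65 and 4.101 in Cited1+ and 11.6 and 11.3 in P2 libraries (log2 fold change -1.53, SE 0.16, limma adjusted p = 0.000723). For these 4 genes every embryonic library was below both P2 libraries. Hes6, a helix-loop-helix factor that opposes Hes1, moved the other way at 27.7, 20.96 and 31.5 in Cited1+ and 7.74 and 7.95 in P2 libraries (log2 fold change 1.63, SE 0.17, limma adjusted p = 0.000639). Hes1 itself stood at 28.8, 24.9 and 42.9 in Cited1+ and 40.7 and 57.1 in P2 libraries, overlapped between groups and did not pass with all 5 libraries. Rbpj, the DNA-binding partner of Notch, stood at 30.8, 33.6 and 30.2 in Cited1+ and 37.2 and 39.96 in P2 libraries and did not pass (limma adjusted p = 0.0718), though it did after rescaling to the median ratio and without Cited1+ replicate 2.

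Guidance and contact genes that passed the test were more often lower than higher in Cited1+ cells. Over all genes tested, 12.7% were lower and 16.3% higher. Of 16 Eph receptors and ephrins 5 were lower and 1 higher (median -0.11), with 4 higher without Cited1+ replicate 2 and 0 without P2 replicate 2. The receptor gene Epha4 stood at 6.23, 5.995 and 6.72 in Cited1+ and 30.7 and 26.9 in P2 libraries (log2 fold change -2.03, SE 0.11, limma adjusted p = 4.55e-05). The ephrin gene Efnb1 stood at 41.3, 40.9 and 41.2 in Cited1+ and 99.02 and 120.4 in P2 libraries (log2 fold change -1.39, SE 0.11, limma adjusted p = 0.000204). Of 36 semaphorin, plexin, netrin, Slit and Robo genes 14 were lower (38.9%) and 8 higher (22.2%). Their median was 0.10 and 20 of the 36 had a fold change above 0, so the list as a whole did not lean to P2. Sema5a stood at 5.14, 5.71 and 5.92 in Cited1+ and 38.2 and 38.2 in P2 libraries (log2 fold change -2.57, SE 0.11, limma adjusted p = 1.50e-05). The semaphorin receptor gene Plxnd1 stood at 7.94, 7.68 and 7.08 in Cited1+ and 32.6 and 31.95 in P2 libraries (log2 fold change -1.96, SE 0.10, limma adjusted p = 3.50e-05). Ntn1, netrin 1, was higher in the embryo at 4.47, 4.92 and 4.14 in Cited1+ and 1.51 and 0.988 in P2 libraries (log2 fold change 1.30, SE 0.16, limma adjusted p = 0.00152). Sema3d was too, at 5.04, 6.58 and 4.76 in Cited1+ and 0.666 and 0.832 in P2 libraries (log2 fold change 1.88, SE 0.17, limma adjusted p = 0.000342). Robo1 stood at 23.1, 28.96 and 22.4 in Cited1+ and 58.4 and 55.1 in P2 libraries (log2 fold change -1.17, SE 0.13, limma adjusted p = 0.000932), so the receptors Robo1 and Robo2 differed in direction.

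Basement membrane genes, which an epithelium lays down as it forms, showed 17 of 35 lower and 8 higher (median -0.46), with 5 higher without P2 replicate 1. Lama4, a laminin alpha chain, stood at 9.99, 7.599 and 9.599 in Cited1+ and 137 and 136 in P2 libraries (log2 fold change -3.78, SE 0.13, limma adjusted p = 7.78e-06). Lamc1, the gamma chain of most laminins, stood at 77.8, 74.9 and 78.3 in Cited1+ and 259.9 and 244 in P2 libraries (log2 fold change -1.70, SE 0.10, limma adjusted p = 4.92e-05). Nid2, a linker of laminin and collagen IV, stood at 16.2, 13.3 and 12.9 in Cited1+ and 55.5 and 54.95 in P2 libraries (log2 fold change -1.90, SE 0.12, limma adjusted p = 7.46e-05). In all 3 the P2 libraries were the higher ones. Dag1, the laminin receptor dystroglycan, stood at 49.6, 58.3 and 52.5 in Cited1+ and 157 and 148 in P2 libraries (log2 fold change -1.50, SE 0.11, limma adjusted p = 0.000132). Lama5, the alpha chain of mature kidney basement membranes, went the other way at 38.4, 24.8 and 33.9 in Cited1+ and 10.2 and 8.84 in P2 libraries (log2 fold change 1.64, SE 0.18, limma adjusted p = 0.000895). Lama1, the alpha chain of nascent ones, stood at 10.7, 9.73 and 12.6 in Cited1+ and 10.6 and 9.11 in P2 libraries and overlapped. The 3 alpha chains therefore showed 3 patterns. Itgb1, the common integrin beta subunit, stood at 106, 121 and 108 in Cited1+ and 179 and 169.6 in P2 libraries (limma adjusted p = 0.00568) and lost its call without P2 replicate 1.

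Of 35 epithelial polarity and junction genes 17 were higher and 4 lower (median 0.49). Cdh1, E-cadherin, stood at 12.7, 12.8 and 14.7 in Cited1+ and 3.42 and 2.05 in P2 libraries (log2 fold change 1.97, SE 0.18, limma adjusted p = 0.000318). Krt8, a keratin of simple epithelia, stood at 21.03, 13.04 and 24.5 in Cited1+ and 4.71 and 3.44 in P2 libraries (log2 fold change 1.98, SE 0.25, limma adjusted p = 0.00165). The tight junction gene Cldn4 stood at 15.5, 9.45 and 20.4 in Cited1+ and 2.47 and 0.732 in P2 libraries (log2 fold change 2.66, SE 0.36, limma adjusted p = 0.00224). Of 14 claudins tested 9 were higher and 2 lower (median 1.34). The 2 lower claudins were Cldn5, which is also on the endothelial marker list, and Cldn11. Cldn5 stood at 2.61, 1.94 and 2.35 in Cited1+ and 22.2 and 18.1 in P2 libraries (log2 fold change -2.68, SE 0.15, limma adjusted p = 4.28e-05). Cldn11 stood at 2.52, 3.15 and 2.104 in Cited1+ and 13.2 and 12.8 in P2 libraries (log2 fold change -1.97, SE 0.15, limma adjusted p = 0.000174). Crb2, an apical polarity gene of podocytes and early epithelium, was lower too, at 0.995, 0.717 and 1.04 in Cited1+ and 3.85 and 5.58 in P2 libraries (log2 fold change -1.56, SE 0.19, limma adjusted p = 0.00129). Cdh1 and Krt8 are also on the ureteric marker list. The ureteric and loop marker sums moved with the higher genes and the podocyte sum with Crb2, and their part was not tested. Cdh2, the cadherin of mesenchyme and early nephron epithelium, stood at 66.97, 83.98 and 59.6 in Cited1+ and 83.2 and 76.2 in P2 libraries, overlapped and passed without Cited1+ replicate 2 alone. Of 10 mesenchymal state genes 3 were higher and 5 lower (median -0.41). Without Cited1+ replicate 1 or either P2 library 0 were higher, and without either P2 library 3 were lower. Snai2, a repressor of E-cadherin, stood at 7.27, 7.94 and 6.61 in Cited1+ and 14.6 and 21.9 in P2 libraries (log2 fold change -1.19, SE 0.18, limma adjusted p = 0.00314).

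Of 21 tested factors that pattern nephron segments, 8 were higher (38.1%) and 7 lower (33.3%), against 16.3% and 12.7% of all genes. Their median was 0.19. Emx2, a homeobox factor of ureteric and nephron epithelium, stood at 4.56, 6.02 and 4.601 in Cited1+ and 22.2 and 22.5 in P2 libraries (log2 fold change -1.96, SE 0.14, limma adjusted p = 0.000123). Osr2 stood at 2.395, 3.34 and 1.75 in Cited1+ and 18.9 and 14.3 in P2 libraries (log2 fold change -2.35, SE 0.21, limma adjusted p = 0.000359). Irx1 and Irx3, both homeobox factors of the middle nephron, moved apart. Irx1 stood at 6.81, 7.34 and 12.1 in Cited1+ and 2.36 and 0.585 in P2 libraries (log2 fold change 2.04, SE 0.35, limma adjusted p = 0.00554). Irx3 stood at 1.45, 1.403 and 1.47 in Cited1+ and 4.32 and 5.49 in P2 libraries (log2 fold change -1.27, SE 0.15, limma adjusted p = 0.00128). Gata3, a factor of the ureteric bud, stood at 5.22, 8.001 and 4.85 in Cited1+ and 1.012 and 1.35 in P2 libraries (log2 fold change 1.66, SE 0.21, limma adjusted p = 0.00165). Tcf21, a factor of kidney mesenchyme and podocytes, stood at 24.4, 19.4 and 27.3 in Cited1+ and 8.595 and 11.9 in P2 libraries (log2 fold change 1.14, SE 0.18, limma adjusted p = 0.0043). Gata3 is also on the ureteric marker list and Irx1 on the loop list, whose sums were higher in the same libraries, while Tcf21 is on the podocyte list, whose sum was lower; their part was not tested.

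Hox genes, which carry position along the body axis, differed by cluster, a grouping made after the values were seen. All 7 Hoxc genes tested were lower in Cited1+ cells (median -0.95), 4 of them without P2 replicate 2. Hoxc8 stood at 13.8, 14.5 and 10.4 in Cited1+ and 32.9 and 34.5 in P2 libraries (log2 fold change -1.33, SE 0.15, limma adjusted p = 0.00094). Hoxc4 stood at 16.6, 19.4 and 13.2 in Cited1+ and 44.4 and 46.5 in P2 libraries (log2 fold change -1.43, SE 0.15, limma adjusted p = 0.000788). Of 9 Hoxa genes 5 were lower and 0 higher (median -0.56), 2 of them without P2 replicate 2. Hoxb genes were higher in 3 of 8 cases and lower in 0 (median 0.44), with Hoxb6 at 54.2, 46.4 and 44.4 in Cited1+ and 25.5 and 21.1 in P2 libraries (log2 fold change 1.02, SE 0.13, limma adjusted p = 0.0017). Of 7 Hoxd genes 4 were higher and 1 lower (median 0.51), but 0 passed in either direction without P2 replicate 1 or 2, and without Cited1+ replicate 3 the count was 2 higher and 0 lower. By paralogue group, 5 of 20 genes of groups 1 to 8 were higher and 9 lower (median 0.21), with 2 higher without either P2 library and 5 lower without P2 replicate 2. Of 11 genes of groups 9 to 13, 2 were higher and 4 lower (median -0.28), counts that fell to 1 and 2 without Cited1+ replicate 3 and to 1 and 1 without P2 replicate 2; Cited1+ replicate 1 and P2 replicate 1 gave 1 and 2 likewise. Hoxa11, which the kidney needs together with its Hox11 paralogues, stood at 37.1, 31.3 and 41.2 in Cited1+ and 25.4 and 30.04 in P2 libraries and did not pass (limma adjusted p = 0.0796), though it did without Cited1+ replicate 2.

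Genes of fetal growth were among the most abundant that differed. Of 18 growth, imprinted, RNA-binding and Hmga genes 10 were higher and 2 lower (median 0.67), the lower ones being Igf2 and H19. Mest, an imprinted hydrolase gene expressed from the paternal allele, stood at 1117, 1123 and 1042 in Cited1+ and 316 and 319 in P2 libraries (log2 fold change 1.78, SE 0.13, limma adjusted p = 0.000128). Peg3, an imprinted zinc finger gene, stood at 123, 134 and 105 in Cited1+ and 51.3 and 52.9 in P2 libraries (log2 fold change 1.19, SE 0.12, limma adjusted p = 0.000684). Igf2bp1 and Igf2bp3, RNA-binding proteins of the embryo, were higher as well. Igf2bp1 stood at 21.7, 17.4 and 18.6 in Cited1+ and 6.75 and 7.001 in P2 libraries (log2 fold change 1.36, SE 0.12, limma adjusted p = 0.000357). Igf2bp3 stood at 13.8, 15.9 and 14.9 in Cited1+ and 1.73 and 1.25 in P2 libraries (log2 fold change 2.68, SE 0.14, limma adjusted p = 2.92e-05). On the P2 side, H19, an imprinted noncoding RNA at chr7:142575530-142578146, stood at 748, 1064 and 760.4 in Cited1+ and 3422 and 3324 in P2 libraries (log2 fold change -1.99, SE 0.20, limma adjusted p = 0.0006). Igf2, the fetal growth factor that neighbours H19 at chr7:142650768-142666816, stood at 174, 239 and 180.5 in Cited1+ and 592 and 545 in P2 libraries (log2 fold change -1.53, SE 0.16, limma adjusted p = 0.000733). For both, Cited1+ replicate 2 was the embryonic library nearest to P2. Hmga2, a chromatin protein of fetal stem cells, stood at 56.7, 72.5 and 46.2 in Cited1+ and 38.2 and 37.2 in P2 libraries and lost its call after either rescaling and without Cited1+ replicate 1 or either P2 library (limma adjusted p = 0.0431). Lin28a and Lin28b, blockers of let-7 maturation, were under 0.2 in every library and were not tested.

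Of 33 glycolysis and hypoxia genes 21 were higher, 63.6% against a background of 16.3%, and 1 lower (median 0.56). This list too was chosen with earlier results of these data known. The higher ones numbered 11 without Cited1+ replicate 1 and 12 and 13 without P2 replicates 1 and 2, and 17 after rescaling to equal sums. Aldoa, the aldolase of the glycolytic pathway, stood at 202, 173 and 196 in Cited1+ and 64.98 and 62.8 in P2 libraries (log2 fold change 1.56, SE 0.11, limma adjusted p = 0.000123). Tpi1, triosephosphate isomerase, stood at 164, 155 and 170.3 in Cited1+ and 64.3 and 57.5 in P2 libraries (log2 fold change 1.41, SE 0.11, limma adjusted p = 0.000152). Eno1, enolase, stood at 439.6, 335 and 456 in Cited1+ and 177 and 170.5 in P2 libraries (log2 fold change 1.22, SE 0.16, limma adjusted p = 0.00176). These enzymes act in the middle of the pathway and did not overlap between groups. At the exit of the pathway, Ldha, which turns pyruvate into lactate, stood at 245, 165 and 244 in Cited1+ and 77.6 and 71.8 in P2 libraries (log2 fold change 1.51, SE 0.18, limma adjusted p = 0.00137). Slc16a3, the lactate exporter MCT4, stood at 15.99, 11.5 and 15.6 in Cited1+ and 3.49 and 2.597 in P2 libraries (log2 fold change 1.92, SE 0.18, limma adjusted p = 0.000374). Pdk1, the kinase that blocks pyruvate entry into the citric acid cycle, stood at 13.1, 9.47 and 11.8 in Cited1+ and 4.48 and 4.65 in P2 libraries (log2 fold change 1.15, SE 0.15, limma adjusted p = 0.00181). Cited1+ replicate 2 was the lowest embryonic library for each of these, and none overlapped P2. Gapdh, of the same pathway, stood at 1032, 1280.5 and 1112 in Cited1+ and 1153 and 1066 in P2 libraries and did not pass (limma adjusted p = 0.882). Hif1a, the hypoxia factor itself, stood at 43.9, 56.5 and 40.5 in Cited1+ and 63.2 and 57.1 in P2 libraries and did not pass with all 5 libraries. Vegfa, the angiogenic target of HIF and a podocyte gene, was the 1 lower member, at 41.95, 36.9 and 33.9 in Cited1+ and 56.8 and 55.6 in P2 libraries (limma adjusted p = 0.0111), a call that ended without either P2 library; 2 members of the list were lower without Cited1+ replicate 2 or P2 replicate 2.

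Promoters of 3 members of the list are shown because they moved together and hold ACGTG, the core of the word that HIF recognises. The windows are from RefSeq on GRCm38.p6, chr7:46845554-46845853 for Ldha, chrX:106186850-106187149 for Pgk1 and chr11:120948817-120949116 for Slc16a3, all on the plus strand, with ACGTG or its complement CACGT in capitals.
Ldha: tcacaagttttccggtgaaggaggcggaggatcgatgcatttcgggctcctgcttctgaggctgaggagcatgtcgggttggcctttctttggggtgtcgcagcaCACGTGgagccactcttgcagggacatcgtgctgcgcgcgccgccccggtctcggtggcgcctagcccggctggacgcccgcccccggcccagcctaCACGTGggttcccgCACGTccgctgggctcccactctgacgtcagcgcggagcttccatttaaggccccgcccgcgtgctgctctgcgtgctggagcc
Pgk1: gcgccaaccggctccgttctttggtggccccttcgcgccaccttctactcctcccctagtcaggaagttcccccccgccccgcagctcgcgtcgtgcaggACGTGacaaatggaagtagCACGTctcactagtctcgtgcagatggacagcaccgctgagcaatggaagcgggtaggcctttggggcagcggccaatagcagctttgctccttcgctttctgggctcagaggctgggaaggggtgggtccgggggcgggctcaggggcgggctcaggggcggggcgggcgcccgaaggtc
Slc16a3: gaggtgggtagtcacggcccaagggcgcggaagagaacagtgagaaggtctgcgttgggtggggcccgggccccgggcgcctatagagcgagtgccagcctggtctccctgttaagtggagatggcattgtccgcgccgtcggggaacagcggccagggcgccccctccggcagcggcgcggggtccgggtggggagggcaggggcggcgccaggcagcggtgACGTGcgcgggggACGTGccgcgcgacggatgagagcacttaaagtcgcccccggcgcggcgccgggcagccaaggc
Matches on both strands started at positions -145, -144, -48, -47 and -34 relative to the start site of Ldha, where overlapping pairs form CACGTG, at -150 and -131 for Pgk1 and at -27 and -14 for Slc16a3. Pgk1, phosphoglycerate kinase, stood at 203, 122 and 203 in Cited1+ and 87.7 and 83.2 in P2 libraries (limma adjusted p = 0.0164) and lost its call without Cited1+ replicate 1 or either P2 library. ACGTG was found in 26.3% of tested promoters, in 18 of the 31 on the list with a promoter (58.1%) and in 11 of the 21 whose genes were higher (52.4%). Genes higher by at least 1 held it in 23.5% of cases and lower ones in 17.4%. The share was thus high in the list as a whole and no higher among its members that rose.

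Other metabolic lists moved less, and several depended on single libraries. Of 34 oxidative phosphorylation genes 9 were higher and 0 lower (median 0.40). The higher ones numbered 27 without Cited1+ replicate 2, 4 without Cited1+ replicate 3, 2 without Cited1+ replicate 1 and 0 without either P2 library. Of 81 ribosomal protein genes, many with near-identical copies, 33 were higher and 0 lower (median 0.56), with 67 higher without Cited1+ replicate 2, 4 without replicate 3, 0 without replicate 1 and 1 without either P2 library. Cited1+ replicate 2 had the lowest ribosomal protein share of its group, as given above. Of 22 amino acid synthesis and ATF4 target genes 6 were higher and 1 lower (median 0.21), with 0 lower without Cited1+ replicate 1 or 3 or either P2 library. Phgdh, the first enzyme of serine synthesis, stood at 150.3, 108 and 159.8 in Cited1+ and 57.3 and 59.6 in P2 libraries (log2 fold change 1.22, SE 0.17, limma adjusted p = 0.00251). Of 23 cholesterol synthesis genes 1 was higher and 7 lower (median -0.23). The lower ones numbered 2 without Cited1+ replicate 1 or either P2 library and 4 without Cited1+ replicate 3, and 4 were higher without Cited1+ replicate 2. Of 13 retinoic acid genes 2 were higher (15.4%) and 4 lower (30.8%), with a median of -0.19. Without Cited1+ replicate 1 or either P2 library 1 was higher. Aldh1a2, which makes retinoic acid, stood at 96.8, 102 and 87.8 in Cited1+ and 441 and 415 in P2 libraries (log2 fold change -2.15, SE 0.11, limma adjusted p = 3.30e-05). Rdh10, which supplies its substrate, stood at 26.2, 25.4 and 25.8 in Cited1+ and 74.3 and 88.2 in P2 libraries (log2 fold change -1.61, SE 0.11, limma adjusted p = 9.31e-05). The binding protein gene Crabp2 stood at 35.9, 36.9 and 32.7 in Cited1+ and 9.11 and 10.4 in P2 libraries (log2 fold change 1.75, SE 0.11, limma adjusted p = 7.23e-05).

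Calls of cell cycle genes depended on single libraries (median -0.14). Of 36 genes 2 were higher (5.56%) and 8 lower (22.2%), against 16.3% and 12.7% of all genes tested. The lower ones numbered 2 without Cited1+ replicate 1 or P2 replicate 1, 13 without Cited1+ replicate 2 and 3 without Cited1+ replicate 3 or P2 replicate 2, and the higher ones 4 without Cited1+ replicate 2, 1 without P2 replicate 2 and 0 without any other library. Cdk6, the kinase partner of cyclin D, stood at 1.33, 1.21 and 1.014 in Cited1+ and 7.48 and 4.76 in P2 libraries (log2 fold change -1.68, SE 0.20, limma adjusted p = 0.00113), beside Ccnd1 above. Ccnd2 stood at 41.2, 42.7 and 45.7 in Cited1+ and 40.2 and 38.98 in P2 libraries and did not pass. Mki67, the proliferation antigen Ki-67, stood at 74.4, 107 and 69.7 in Cited1+ and 116 and 104 in P2 libraries and did not pass with all 5 libraries (limma adjusted p = 0.136). Of 21 cell cycle inhibitors and p53 targets 3 were higher and 6 lower (median -0.15), with 3 lower without Cited1+ replicate 1 and 2 without P2 replicate 2. Cdkn1a, the inhibitor p21, stood at 3.57, 4.05 and 4.59 in Cited1+ and 12.8 and 8.12 in P2 libraries (log2 fold change -1.15, SE 0.20, limma adjusted p = 0.00559). Cdkn2c, the inhibitor p18, stood at 1.31, 1.203 and 1.49 in Cited1+ and 4.14 and 4.095 in P2 libraries (log2 fold change -1.13, SE 0.15, limma adjusted p = 0.00171). Cdkn1c, the imprinted inhibitor p57, stood at 73.9, 82.1 and 82.5 in Cited1+ and 46.8 and 47.4 in P2 libraries (log2 fold change 0.74, SE 0.10, limma adjusted p = 0.0021). Cdkn1c was higher in the embryo, and Cdkn1a and Cdkn2c were higher at P2.

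Polycomb and mTOR lists had shares of calls near the background. Of 35 Polycomb and DNA methylation genes 6 were higher and 2 lower (median 0.12), with 3 higher without Cited1+ replicate 1 or either P2 library. The lower ones numbered 5 without Cited1+ replicate 2 and 1 without any other library. Jarid2, a PRC2 partner, stood at 20.6, 19.8 and 20.2 in Cited1+ and 35.99 and 38.6 in P2 libraries (log2 fold change -0.85, SE 0.10, limma adjusted p = 0.000935). Ezh2, its catalytic subunit, stood at 54.5, 55.02 and 54.4 in Cited1+ and 77.1 and 60.4 in P2 libraries without passing. Of 24 Tsc and mTOR genes 4 were higher and 3 lower (median 0.06), with 7 higher without Cited1+ replicate 2, 2 higher without P2 replicate 2, and 1 lower without Cited1+ replicate 3 or either P2 library. Of 23 Hippo genes 4 were higher and 6 lower (median -0.08). Without Cited1+ replicate 1 or P2 replicate 2 these counts were 2 and 2, and without P2 replicate 1 they were 2 and 3. Fat3, an atypical cadherin, stood at 13.6, 12.6 and 12.8 in Cited1+ and 1.27 and 2.04 in P2 libraries (log2 fold change 2.41, SE 0.15, limma adjusted p = 7.23e-05). The target gene Ctgf stood at 2.49, 2.16 and 3.08 in Cited1+ and 7.32 and 12.1 in P2 libraries (log2 fold change -1.55, SE 0.22, limma adjusted p = 0.00243). The effector gene Yap1 stood at 69.5, 63.2 and 66.3 in Cited1+ and 54.4 and 56.4 in P2 libraries, and it passed without Cited1+ replicate 2 alone.

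Genes that respond to cell dissociation were called in both directions, as were all genes tested (16.3% higher, 12.7% lower). Of 22 immediate early genes 4 were higher (18.2%) and 5 lower (22.7%), with a median of 0.16. Without Cited1+ replicate 2, 7 were higher, without P2 replicate 1 the counts were 2 and 3, and without P2 replicate 2, 2 were lower. Junb stood at 114, 101 and 153 in Cited1+ and 32.6 and 47.4 in P2 libraries (log2 fold change 1.59, SE 0.21, limma adjusted p = 0.00199). Jun stood at 161, 142 and 163 in Cited1+ and 255 and 266 in P2 libraries (log2 fold change -0.74, SE 0.11, limma adjusted p = 0.00362). These AP-1 subunits moved apart. Of 22 heat shock and chaperone genes 5 were higher (22.7%) and 6 lower (27.3%), with a median of 0.13. Without P2 replicate 1 the counts were 1 and 0, without P2 replicate 2 they were 3 and 2, and without Cited1+ replicate 1, 0 were lower. Dnajb1, a co-chaperone of HSP70, stood at 25.6, 17.4 and 30.8 in Cited1+ and 8.85 and 8.48 in P2 libraries (log2 fold change 1.37, SE 0.21, limma adjusted p = 0.00402).

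Of 24 neuropeptide, hormone and growth factor genes 5 were higher (20.8%) and 8 lower (33.3%), with a median of 0.01. Without Cited1+ replicate 3, 3 were higher. Met, the receptor of hepatocyte growth factor, stood at 25.8, 27.4 and 26.7 in Cited1+ and 6.75 and 5.502 in P2 libraries (log2 fold change 1.96, SE 0.12, limma adjusted p = 5.10e-05). Vegfc, a growth factor of lymphatic vessels, stood at 2.06, 2.26 and 2.89 in Cited1+ and 20.2 and 14.3 in P2 libraries (log2 fold change -2.41, SE 0.18, limma adjusted p = 0.000152). Kit, the receptor of stem cell factor, stood at 2.41, 3.44 and 2.92 in Cited1+ and 7.296 and 8.95 in P2 libraries (log2 fold change -1.22, SE 0.16, limma adjusted p = 0.00201). Met was the only one of these 3 that was higher in the embryo. Of 22 chemokine, cytokine and TNF family genes 4 were higher (18.2%) and 6 lower (27.3%), with a median of -0.01. The higher ones numbered 1 without Cited1+ replicate 1 and 2 without Cited1+ replicate 3 or either P2 library. Without P2 replicate 2, 3 were lower. Cxcl12, a chemokine of mesenchyme, stood at 13.05, 10.9 and 12.2 in Cited1+ and 21.7 and 24.4 in P2 libraries (log2 fold change -0.88, SE 0.12, limma adjusted p = 0.00206). Ackr3, its scavenging receptor, stood at 11.2, 12.3 and 14.1 in Cited1+ and 27.6 and 34.7 in P2 libraries (log2 fold change -1.25, SE 0.14, limma adjusted p = 0.00104). Ligand and scavenger were thus both higher at P2.

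**Figure D4:**
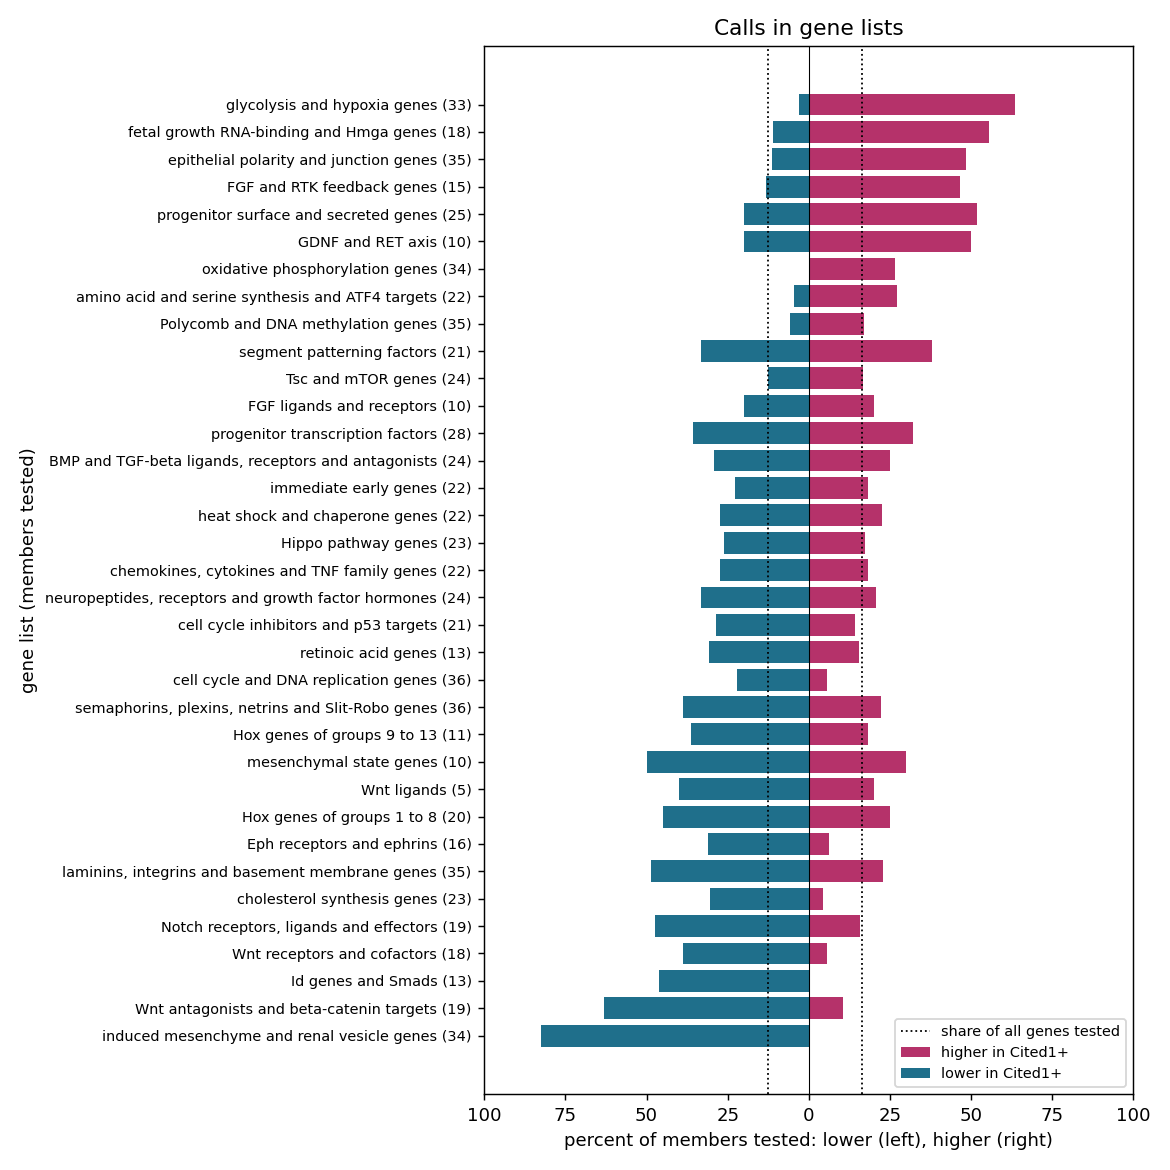
Bars give the percent of tested members of each list that were higher (right) or lower (left) in Cited1+ cells, and dotted lines the same shares over all genes, 16.3% and 12.7%. Glycolysis and hypoxia genes (63.6% higher) and renal vesicle genes (82.4% lower) lie at the ends of the order, which runs by the difference of the shares. The lists were chosen with earlier results of these data known.

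Levels of E16.5 Six2+ libraries in the separately normalised table are set beside these differences, without a test. They share their stage with the Cited1+ sort and their reporter line with the P2 sort. Of the 30 largest rises, the E16.5 Six2+ mean lay between both group means for 21 genes. On the log2(value + 1) scale it was nearer to Cited1+ for 20 and nearer to P2 for 10. Of the 30 largest falls it lay between them for 25 and, on the same log2 scale, nearer to Cited1+ for 26. These genes were chosen for large differences between the 2 groups, so a level between them is in part given by the choice. The same shares over all genes tested were not counted. Wnt4 stood at 65.98, 62.6 and 60.4 in E16.5 Six2+ libraries, between the Cited1+ libraries (7.71 to 10.4) and the P2 libraries (216 to 222). Lhx1 stood at 4.601, 4.99 and 3.41 and Pax8 at 52.2, 53.3 and 56.2, both nearer to the Cited1+ than to the P2 libraries. Meox2 stood at 5.5, 5.29 and 4.12 and Crym at 281, 368 and 213, the latter above every library of both other sorts. In the plot of 3 sorts Six3 was the gene whose E16.5 Six2+ libraries lay with the P2 sort.

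**Figure D5:**
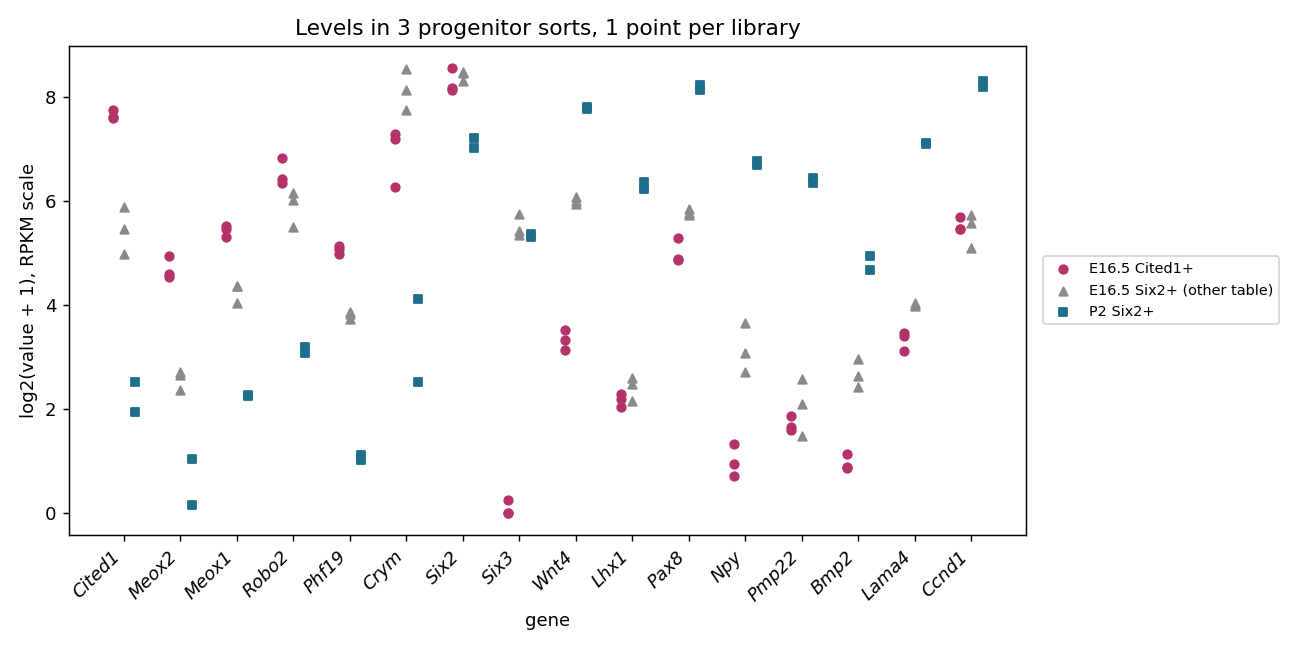
The vertical axis gives log2(value + 1) on the RPKM scale and each point is 1 library, for 16 genes in E16.5 Cited1+, E16.5 Six2+ (from the other table, normalised separately) and P2 Six2+ cells. Lhx1, Pax8, Pmp22 and Lama4 lie nearer to the Cited1+ than to the P2 level in E16.5 Six2+ cells. Wnt4 lies nearer to the P2 level, Meox2 about midway, and Six3 at the P2 level.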

How the data were processed

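Messenger RNA of sorted mouse kidney cells was sequenced. Per the labels' protocols, RNA was isolated with Qiagen RNeasy micro columns and libraries were made with a Kapa stranded mRNA-Seq kit. Tools listed in the submitters' processing notes were TopHat2, Partek and bcl2fastq 2.17, with the mm10 genome. Use of strand in counting is not given in the labels, so a gene and an overlapping antisense gene may share reads. The deposited values, made by the authors, are on the RPKM scale: the sheets call them TPM, but their sums differ between libraries (321882.9 to 354925.2), while sums weighted by transcript length (GENCODE M21) vary by 1.04% against 4.22% unweighted. The planned test assumed TPM and was kept. Depths are inferred from the steps between low values, not stated.

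From these values, 27 rows with names turned into dates were dropped (at most 0.164% of a library), and genes with a mean of at least 1 over the 5 libraries were fitted as log2(value + 1) with limma 3.58.1 in R 4.3.3, with Benjamini-Hochberg adjustment over all genes tested. The table of E16.5 Six2+ and Six2- libraries was normalised separately and enters no test. The code was tested on simulated data. Alternatives were another pseudocount, other filters, 2 rescalings, no mean-variance trend, the replicate number as a block, and leaving out each library.

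Named genes were Cited1, Six2, Six3, Meox2, Foxd1, Wnt4, Lhx1 and Pax8, the 30 largest rises and falls among genes that passed without overlap between groups at a mean of at least 5 in the higher group, leaving out gene models and sex-linked genes, up to 6 passing members and the highest member of each list, members whose role is described, and the 5 genes with the widest spread in each group. Capn6, Lsp1, Gja1, Igfbp5, the Hox clusters, claudins, ribosomal proteins and promoter words were chosen after their values were seen. All members and lists were chosen with earlier results of these data known. Promoters are RefSeq sequences on GRCm38.p6, found for 9109 tested genes. Some list members are counted in their lists but are not reported by name here.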

Additional observations from a re-analysis of the deposited data

How the results depend on the processing

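The genes higher in Cited1+ cells numbered 1930 with all 5 libraries, 1139 with no filter on low values and 791 to 3012 when 1 library was left out, the highest without Cited1+ replicate 2. The genes lower in Cited1+ cells numbered 1512, and 788 to 2145 when 1 library was left out. A filter on a mean of at least 5, which tests fewer genes, left 262 genes higher in Cited1+ with a log2 change of at least 1 and 297 genes lower in Cited1+ with a log2 change of at least 1. Deviations of same-numbered libraries from their group means had r = 0.042 and -0.028 over genes, for the 2 numbers shared. With 2 P2 libraries the deviations of that group mirror each other, so these values cannot show whether the numbers pair the libraries. A fit with the replicate block called 895 higher and 868 lower. S100g had a log2 fold change of 0.78 with all 5 libraries, -0.876 without P2 replicate 2 and 2.444 without P2 replicate 1, since the P2 libraries differed widely. Of 320 named genes called, 230 stayed called in every setting tested. Named genes were largely picked for passing or large changes, so that share does not describe all calls. Of the 3442 genes called, 1638 were also called without Cited1+ replicate 1 and 1726 with the replicate block. Rescaling to equal sums left 3 rather than 5 neuropeptide and hormone genes higher. Beyond calls given with each gene, the cause of these shifts was not tested. With 2 P2 libraries and 3 Cited1+ libraries the number of libraries limits precision, and genes below a mean of 1 were not tested.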
